A study of Caenorhabditis elegans with 11 samples.

Results

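A pair of repeats of day 1 adult Caenorhabditis elegans, called repeat 1 and repeat 6-6 after a tag in the names of the deposited data, were compared within each of 3 genotypes. The comparison takes 6 of the 11 RNA-seq libraries of the series, 1 library for each genotype and repeat. The genotypes were N2, the standard laboratory strain, and a pair of lines that carry the daf-16(mu86) deletion together with an integrated transgene. In the line called WT the transgene was iqIs79, which expresses DAF-16 fused to GFP from the daf-16 promoter. In the line called 2KR it was iqIs85, which expresses the same fusion with 2 lysines replaced by arginine. DAF-16, a FOXO transcription factor, acts downstream of the insulin receptor. Both transgenic lines also carry the pRF4 plasmid, whose rol-6 marker makes worms roll. There was 1 line per transgene. All worms were fed Escherichia coli OP50 on agar plates at 20 °C, and each library came from whole-worm RNA of about 1000 adults. The labels call the libraries of a genotype biological repeats and do not say what the tag stands for. A shared tag could mark a culture, an RNA preparation, a library preparation or a sequencing run, and these cannot be told apart here.

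Total counts ran from 21947014 to 30810301 over the 6 libraries. The rol-6 marker (WBGene00004397) followed the labels in both repeats. It was at 0.0935 and 0.134 CPM (counts scaled to library size) in the N2 libraries of repeats 1 and 6-6, at 57.8 and 66.6 CPM in WT and at 122 and 153 CPM in 2KR. The daf-16 transcript (WBGene00000912) was at 160 and 145 CPM in N2, 400 and 400 CPM in WT and 214 and 234 CPM in 2KR, and it did not pass between repeats (0.01 ± 0.05 SE on the log2 scale, edgeR adjusted p = 0.966). Markers of body wall and pharynx muscle, neurons, intestine, hypodermis, yolk, oocytes and sperm were all detected in the 6 libraries. Of 12 male-enriched genes, cwp-1 and cwp-3 had 0 counts in every library, and pkd-2 and lov-1 had at most 4 and 5 counts. Others were detected, with 8 to 17 counts for cwp-4, 3 to 12 for mab-3, 45 to 70 for plg-1 and 87 to 120 for the seminal fluid gene try-5. Summed, the 12 stood at 5.88 to 8.55 CPM in repeat 1 and 6.25 to 9.41 CPM in repeat 6-6, higher in repeat 6-6 within each genotype. The largest part of the sum was try-5. It was at 4.07 and 4.95 CPM in repeats 1 and 6-6 of N2, 3.21 and 4.21 CPM in WT and 2.97 and 3.37 CPM in 2KR. For plg-1 the values were 2.66 and 2.72 CPM in N2, 2.58 and 2.07 CPM in WT and 1.7 and 1.6 CPM in 2KR. None of the 3 male-enriched genes that passed the filter was called. Ribosomal RNA genes took 0.118% to 0.258% of the counts in repeat 1 and 0.168% to 0.482% in repeat 6-6, and their share was higher in repeat 6-6 within each genotype.

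Some tissues of the young adult work on a timetable. A hermaphrodite makes its sperm late in larval life and then switches to oocytes, which take up yolk made in the intestine and are fertilised as they pass the stored sperm. The cuticle is rebuilt at each molt, from collagens that are made in pulses. Heat shock genes are switched on within minutes by heat or misfolded protein. Muscle, in contrast, is built of long-lived sarcomeres whose myosin, troponin and paramyosin genes stay on in the adult.

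Of 13691 genes tested, 1122 differed between repeats in the fit with genotype as a block (edgeR quasi-likelihood test, Benjamini-Hochberg adjusted p under 0.05). In repeat 6-6, 549 genes were higher (4.01%) and 573 lower (4.19%). The differences were small for most of them, with a median absolute log2 fold change of 0.27 against 0.10 over all genes tested. Only 118 reached 2-fold, 13 of them higher and 105 lower. Of the 1122, 1099 had the same sign in 3 of 3 genotypes. The calls were made from these same differences, so this count is no separate support. Over all genes tested 23.3% were higher and 20.2% lower in 3 of 3 genotypes. The same libraries gave 593 calls between 2KR and WT (4.33%) and 1549 between WT and N2 (11.3%), of which 86 and 364 reached 2-fold. Repeat and the 2KR line shared 80 calls, which is 7.13% of the calls between repeats and 13.5% of those between 2KR and WT. The calls rest on the pairing by genotype. Without the replicate block, as 3 libraries against 3, 3 genes passed (2 higher and 1 lower), and 1305 were under an unadjusted p of 0.05, against 3171 in the paired fit. They also rest on WT most. Without the WT pair 423 of 13695 genes were called, 281 of them higher and the rest lower. Without the 2KR pair, of 13690 genes, 249 were higher and 377 lower. Without the N2 pair, of 13766 genes, 960 were higher and 898 lower. Counts of list members without 1 pair, given below, are to be set beside these totals.

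The difference between repeats in N2 was set against that in the transgenic lines by a test of the difference itself, in a fit of 8 libraries that adds repeat 3 of WT and 2KR. It called 4 of 14361 genes (0.0279%), with 714 under an unadjusted p of 0.05, and none of them belongs to the sperm, muscle, heat shock, cuticle, yolk or embryo genes described here. A p that misses the threshold does not show that the genotypes were alike. Over the 13691 genes, the log2 difference between repeats correlated between WT and 2KR with r = 0.376, between N2 and WT with 0.253 and between N2 and 2KR with 0.185. The pairs share no library, and genes are not independent replicates.

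**Figure D1:**
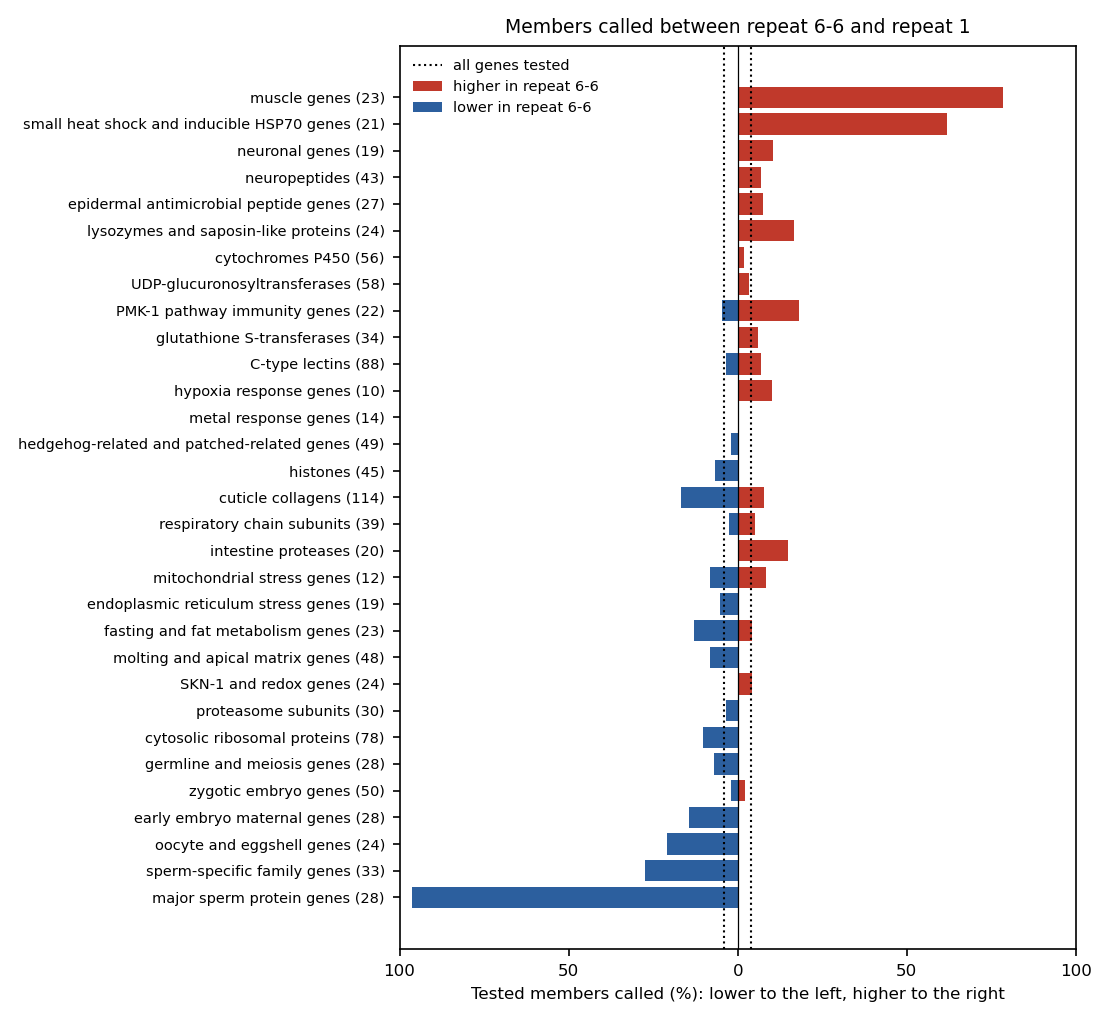
Percent of the tested members of each gene list that were called higher (to the right) or lower (to the left) in repeat 6-6, for lists with at least 10 tested members, whose number stands in brackets. Dotted lines mark all genes tested, at 4.01% higher and 4.19% lower. Major sperm protein genes stand at 96.4% lower, and muscle and heat shock genes lead on the other side.

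The major sperm proteins are the bulk proteins of nematode sperm, which crawl on a skeleton built of them and release them as a signal to oocytes, and their genes are transcribed during spermatogenesis. They were the class that differed furthest. Of 35 genes listed, 28 passed the filter on low counts, and 27 of these were lower in repeat 6-6 and none higher, where 4.19% of all genes tested were lower. All 28 that were tested were lower in 3 of 3 genotypes, against 20.2% of all genes. Their median log2 fold change was -1.08, with a range from -1.41 to -0.73. Summed over the 35 genes, the level was 107 CPM in N2 repeat 1 and 71.2 CPM in N2 repeat 6-6. In WT the sum was 99.6 and 28.9 CPM, and in 2KR 67.3 and 34.5 CPM. The highest repeat 6-6 library, N2, was just above the lowest repeat 1 library, 2KR, so the repeats overlap unless genotype is taken into account. Within the genotypes the ratios of repeat 6-6 to repeat 1 were 0.668 in N2, 0.29 in WT and 0.512 in 2KR.

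Single genes showed the same order. The gene msp-57 (WBGene00003450, chromosome IV, 5062578 to 5062961 of WBcel235) was at 6.07, 4.87 and 3.43 CPM in repeat 1 of N2, WT and 2KR and at 3.57, 1.65 and 1.56 CPM in repeat 6-6. It was 2.18-fold lower, with a log2 fold change of -1.13 ± 0.17 (SE, edgeR adjusted p = 6.25e-04). For msp-81 (WBGene00003467, chromosome IV, 9836034 to 9836417) the values were 5.47, 5.16 and 3.14 CPM against 3.03, 1.12 and 1.53 CPM, and no repeat 6-6 library reached a repeat 1 library (-1.32 ± 0.21 SE, adjusted p = 0.00103). The msp copies are nearly identical in sequence, so the split of reads among them is uncertain and the summed level is the firmer value. In bulk worms, fewer sperm-forming cells and less RNA in each of them cannot be told apart. Called lower were 16 msp genes without the WT pair, 24 without the 2KR pair and 28 without the N2 pair. The summed level of male-enriched genes, given above, was not lower in repeat 6-6 in any genotype, but try-5 was its largest part. The male-enriched gene plg-1 was lower in repeat 6-6 of WT and 2KR. The part of males in the sperm difference was not tested.

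Other genes of spermatogenesis were also lower, though fewer of them passed. The list of sperm-specific families (ssp, nspd, gsp and others) had 33 of 54 members tested. Of these 9 were lower (27.3%, against 4.19% of all genes) and none higher. In 3 of 3 genotypes 21 were lower, and the median log2 fold change was -0.61. Among those that fell were gsp-3 and gsp-4, a pair of closely related protein phosphatase genes that sperm need. In repeat 1 of N2, WT and 2KR, gsp-4 (WBGene00020187, chromosome I, 3838237 to 3839673) was at 1.96, 1.62 and 1.1 CPM, and in repeat 6-6 at 0.803, 0.527 and 0.639 CPM (-1.25 ± 0.25 SE, edgeR adjusted p = 0.00567). All 3 of its repeat 6-6 values were under all 3 of its repeat 1 values. For gsp-3 the log2 fold change was -1.35 ± 0.30 (adjusted p = 0.012), and for nspd-4, of a small nematode-specific family of sperm peptides, it was -1.21 ± 0.25 (adjusted p = 0.0082). The gene ssq-2, of another sperm-specific family, was at 7.29, 8.0 and 4.61 CPM in repeat 1 and at 5.89, 2.53 and 2.52 CPM in repeat 6-6, with the N2 value of repeat 6-6 inside the range of repeat 1 (-0.92 ± 0.18, adjusted p = 0.00567). Without the WT pair 1 family gene was called lower, and the calls of gsp-3 (edgeR adjusted p = 0.166), nspd-4 (adjusted p = 0.0813) and ssq-2 (adjusted p = 0.0573) were lost. Summed over all 54 listed genes, which include broadly transcribed ones, the level changed little, from 188 to 183 CPM in N2, from 200 to 166 CPM in WT and from 186 to 167 CPM in 2KR.

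**Figure D2:**
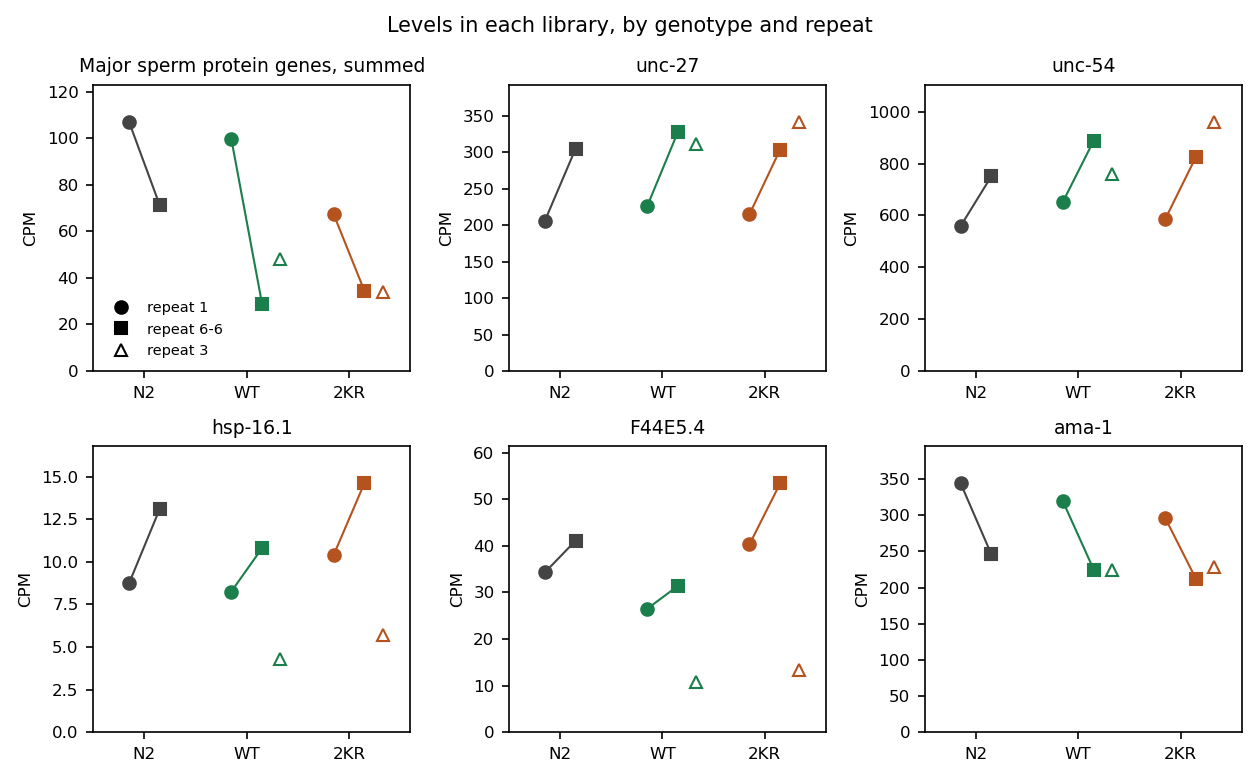
Level in CPM in each library of the summed major sperm protein genes and of 5 single genes, by genotype, with repeat 1 as circles, repeat 6-6 as squares joined to it, and repeat 3 of WT and 2KR as open triangles. The sperm sum and ama-1 drop from repeat 1 to repeat 6-6 in all 3 genotypes and unc-27, unc-54, hsp-16.1 and F44E5.4 rise, while in repeat 3 the heat shock pair hsp-16.1 and F44E5.4 lies under both.

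Muscle genes were higher in repeat 6-6 and were the list with the largest share of its spread going with the repeat. Of 23 genes of the contractile apparatus, all tested, 18 rose and none fell (4.01% of all genes rose), 19 were higher in 3 of 3 genotypes (23.3% of all genes), and the median log2 fold change was 0.41. The medians of the log2 differences were 0.30 in N2, 0.39 in WT and 0.49 in 2KR. The troponin I gene unc-27 (WBGene00006764, chromosome X, 8789456 to 8790621) was at 206, 226 and 215 CPM in repeat 1 of N2, WT and 2KR and in repeat 6-6 at 305 CPM in N2 and 328 CPM in WT, while 2KR was above its own repeat 1 by 0.50 on the log2 scale. The groups did not overlap, and the rise was 1.45-fold, or 0.54 ± 0.04 on the log2 scale (SE, edgeR adjusted p = 1.04e-06). The body wall myosin heavy chain gene unc-54 (WBGene00006789, chromosome I, 14855901 to 14863482) went from 559, 653 and 586 CPM to 751, 888 and 826 CPM, a 1.37-fold rise (0.46 ± 0.04, adjusted p = 3.52e-06). Its differences of 0.43, 0.44 and 0.49 in N2, WT and 2KR lay close together.

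The genes that rose code for several parts of the sarcomere. The giant twitchin kinase gene unc-22 rose by 0.55 ± 0.05 (log2 fold change ± SE, edgeR adjusted p = 3.52e-06), and the titin gene ttn-1 by 0.57 ± 0.07 (adjusted p = 1.84e-04, and 0.0593 in the fit of 8 libraries). Pharynx muscle took part as well as body wall muscle. The pharynx myosin gene myo-2 (WBGene00003514, chromosome X, 12468061 to 12475348) was at 8.64, 15 and 14.8 CPM in repeat 1 and at 15.3, 22.8 and 20.8 CPM in repeat 6-6 (0.62 ± 0.08, adjusted p = 1.88e-04). The other pharynx myosin gene, myo-1, rose from 8.74, 15.3 and 14.9 CPM to 15.7, 23.2 and 22.8 CPM (0.67 ± 0.08, adjusted p = 7.69e-05). The troponin T gene tnt-4 was at 1.17, 3.54 and 3.23 CPM in repeat 1 and 3.30, 5.69 and 6.89 CPM in repeat 6-6 (1.01 ± 0.15, 2.01-fold, adjusted p = 8.12e-04). N2 was the lowest genotype for tnt-4 in both repeats, and its repeat 6-6 value lay under the repeat 1 value of WT, so the groups overlap. The actin-binding gene ketn-1, which codes for a long sarcomere protein, rose from 79.4, 111 and 84.2 CPM to 133, 153 and 143 CPM (0.66 ± 0.05, adjusted p = 1.99e-06). Of the 23 listed muscle genes 4 had a negative log2 fold change, the lowest -0.11. In 3 of 3 genotypes 2 were lower, where 20.2% of all genes were. The smallest rises among the called members were those of pat-10, a troponin C gene (0.23 ± 0.05, adjusted p = 0.014), and the actin gene act-4 (0.18 ± 0.05, adjusted p = 0.0226). The act-4 call was lost without the 2KR pair (edgeR adjusted p = 0.141) or the WT pair (adjusted p = 0.0939) and in the fit of 8 libraries (adjusted p = 0.095), and that of pat-10 without the 2KR pair (adjusted p = 0.102).

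Gene length moved with the repeat. Over 12781 protein-coding genes tested, with a median length of 1410 bases, genes that were higher in repeat 6-6 had a median of 921 bases and genes that were lower one of 2462 bases. Across genes, Spearman's rho of the log2 fold change with length was -0.26, with -0.089 in N2, -0.199 in WT and -0.265 in 2KR. Of the muscle genes longer than the median coding gene 11 of 12 rose, with a median log2 fold change of 0.45, and of the shorter ones 7 of 11, with a median of 0.29. The part of length in the other lists was not tested. Among the long genes that fell, ncl-1, which restrains the size of the nucleolus, was at 144, 151 and 149 CPM in repeat 1 and at 85.6, 96.5 and 97.8 CPM in repeat 6-6 (-0.66 ± 0.04 SE, edgeR adjusted p = 3.63e-07). It had the smallest adjusted p among the genes that the naming rule took. The RNA polymerase II large subunit gene ama-1 (WBGene00000123, chromosome IV, 4248070 to 4258169) went from 344, 319 and 296 CPM to 246, 225 and 212 CPM, with differences of -0.49, -0.50 and -0.48 in N2, WT and 2KR (-0.49 ± 0.04, adjusted p = 1.99e-06).

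Inducible heat shock genes were mildly higher in repeat 6-6. Of 21 small heat shock and HSP70 genes tested, 13 rose and none fell, where 4.01% of all genes rose, and the median log2 fold change was 0.32. Medians of the differences were 0.25 in N2, 0.24 in WT and 0.39 in 2KR. The small heat shock gene hsp-16.1 (WBGene00002015, chromosome V, 9087293 to 9087782) was at 8.74, 8.26 and 10.4 CPM in repeat 1 of N2, WT and 2KR and at 13.1, 10.8 and 14.6 CPM in repeat 6-6. The groups did not overlap, and the rise was 1.40-fold (0.49 ± 0.09 SE, edgeR adjusted p = 0.00353). Its neighbours in function hsp-16.2 (0.68 ± 0.19, adjusted p = 0.0327) and hsp-16.41 (0.67 ± 0.17, adjusted p = 0.0256) rose too, and both calls were lost without the 2KR pair (edgeR adjusted p = 0.321 and adjusted p = 0.196), that of hsp-16.2 also in the fit of 8 libraries (adjusted p = 0.0613). The HSP70 gene F44E5.4 (WBGene00009691, chromosome II, 11757107 to 11759311) went from 34.3, 26.5 and 40.3 CPM to 41.1, 31.4 and 53.4 CPM, a 1.24-fold rise (0.31 ± 0.06, adjusted p = 0.0039). F44E5.4 and F44E5.5 are near copies of each other, as are several hsp-16 genes, so their reads may be shared. The constitutive HSP70 gene hsp-1 was at 4209 and 4263 CPM in N2, 4356 and 4300 CPM in WT and 4022 and 3931 CPM in 2KR (adjusted p = 0.931). The number of heat shock calls was 9 without the 2KR pair, 11 without the WT pair and 13 without the N2 pair. Over all genes tested 249, 281 and 960 were higher in these fits.

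The other stress classes had few calls, where 4.01% of all genes tested were higher and 4.19% lower. The share lower was 5.26% in endoplasmic reticulum stress genes, and the share higher was 4.17% in SKN-1 and redox genes. Mitochondrial stress genes had 8.33% on each side. The hypoxia share, 1 of 10 higher, was above that of all genes. Each of these shares rests on 1 gene, so they do not set a class apart from all genes. Of 19 endoplasmic reticulum stress genes tested 1 fell, the protein disulfide isomerase gene pdi-2 (-0.15 ± 0.04 SE, edgeR adjusted p = 0.025), and the chaperone gene hsp-4, which codes for BiP, was at 435, 434 and 438 CPM in repeat 1 and 454, 445 and 407 CPM in repeat 6-6 (adjusted p = 0.993). Of 12 mitochondrial stress genes, the chaperonin gene hsp-60 fell (-0.15 ± 0.04, adjusted p = 0.0255) and the ubiquitin-like gene ubl-5 rose (0.38 ± 0.07, adjusted p = 0.00453). Of 24 SKN-1 and redox genes 1 rose, the glutathione S-transferase gene gst-10 (0.22 ± 0.06, adjusted p = 0.0241). Of 10 hypoxia genes 1 rose, cysl-2, which acts on sulfide (0.32 ± 0.06, adjusted p = 0.00521). None of 14 metal response, 8 osmotic stress or 4 intracellular pathogen response genes passed. By unadjusted p, the first of each were ftn-1 (adjusted p = 0.17), hmit-1.1 (0.209) and skr-3 (0.0994), and skr-3 passed without the N2 pair (edgeR adjusted p = 0.0106). Without the WT pair the calls of pdi-2 (edgeR adjusted p = 0.193), hsp-60 (adjusted p = 0.394) and gst-10 (adjusted p = 0.244) were lost, and that of gst-10 also without the 2KR pair (adjusted p = 0.0948). The fit of 8 libraries lost hsp-60 (edgeR adjusted p = 0.0574) and gst-10 (adjusted p = 0.0647).

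Most calls in the immunity and detoxification lists were higher. Of 22 genes of the PMK-1 p38 kinase pathway 4 rose (18.2%, against 4.01% of all genes) and 1 fell (median log2 fold change 0.12). Of 24 lysozyme and saposin-like genes 4 rose (16.7%) and none fell (median 0.17). The genes lys-1 and lys-2 count among the risers of both lists. Within N2, WT and 2KR the median differences were -0.02, 0.15 and 0.25 for PMK-1 pathway genes. For lysozyme and saposin-like genes they were -0.04, 0.19 and 0.28, so neither median rose in N2. The PMK-1 target T24B8.5 (WBGene00011979, chromosome II, 9082626 to 9083193) was at 24, 13.3 and 18.6 CPM in repeat 1 and at 30.5, 22.5 and 31.3 CPM in repeat 6-6, higher within each genotype though the groups overlap (0.62 ± 0.08 SE, edgeR adjusted p = 2.09e-04). The lysozyme gene lys-2 rose by 0.28 ± 0.06 (adjusted p = 0.00765), with differences of 0.08 in N2, 0.29 in WT and 0.45 in 2KR. C-type lectins had 6 higher (6.82%) and 3 lower of 88, and epidermal antimicrobial peptide genes 2 higher of 27 (7.41%). Cytochromes P450 had 1 higher of 56 (1.79%), UDP-glucuronosyltransferases 2 of 58 (3.45%) and glutathione S-transferases 2 of 34 (5.88%). Without the N2 pair, 9 PMK-1 pathway genes and 11 lysozyme and saposin-like genes were higher, and without the WT pair 2 and 1. Over all genes tested, 960 of 13766 were higher without the N2 pair and 281 of 13695 without the WT pair.

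**Figure D3:**
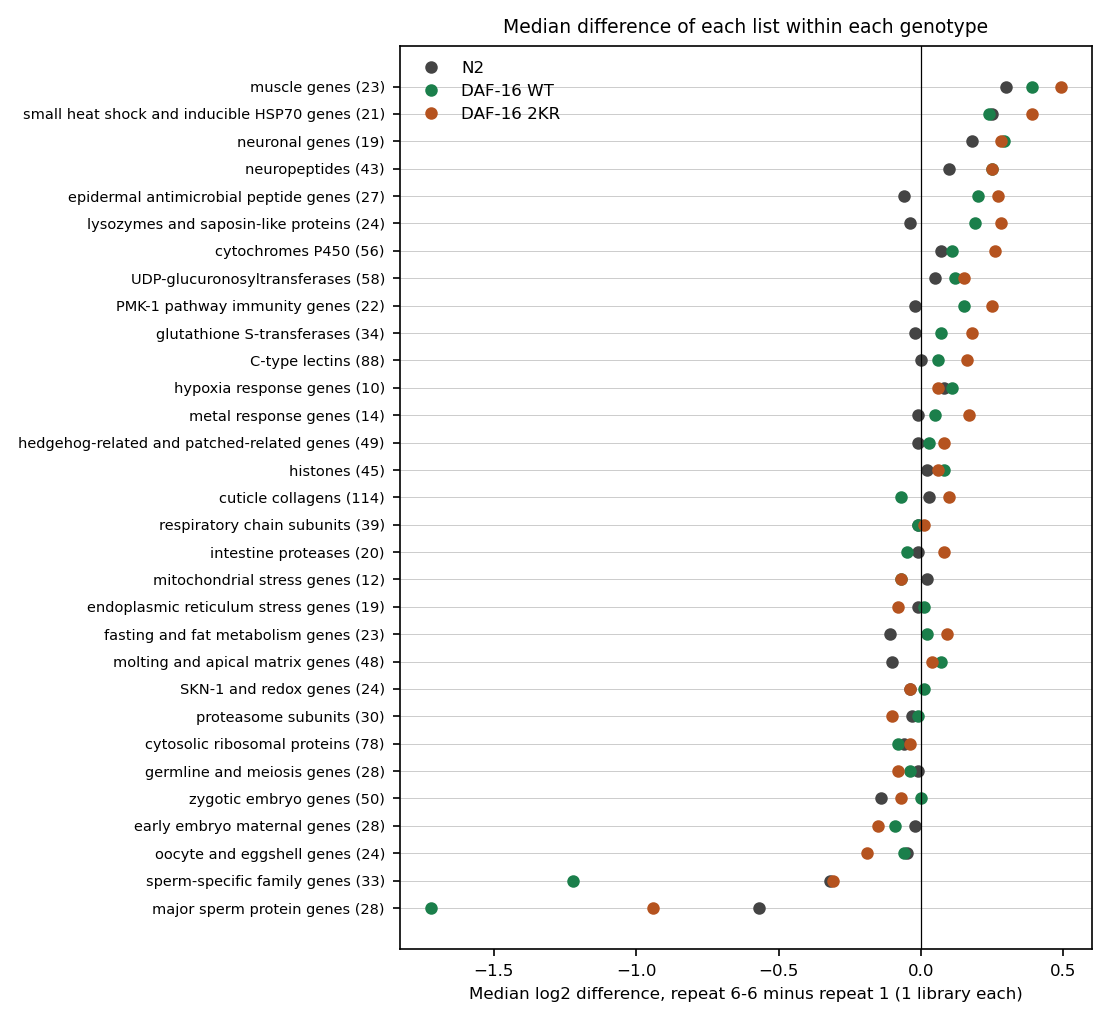
Median log2 difference, repeat 6-6 minus repeat 1, of each list within N2, WT and 2KR, with 1 library on each side and the number of tested members in brackets. The major sperm protein medians are -0.57, -1.72 and -0.94, the muscle medians 0.30, 0.39 and 0.49, and most lists lie near 0.

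Cuticle collagens moved in both directions. Of 114 collagen genes tested 9 rose (7.89%) and 19 fell (16.7%), against 4.01% and 4.19% of all genes, and the median log2 fold change was 0.02. The 19 that fell had a median level of 5.46 CPM and a median difference of -1.32 in WT, against -0.19 in N2 and -0.26 in 2KR, and 16 of them had their lowest difference in WT. Whether WT differed from 2KR in this was not tested. The gene col-139 (WBGene00000712, chromosome V, 4652863 to 4653971) shows it: 42.9 and 33.6 CPM in N2, 108 and 46.5 CPM in WT and 95.7 and 73.2 CPM in 2KR, in repeats 1 and 6-6 (-0.66 ± 0.11 SE, edgeR adjusted p = 0.00158). For col-149 the values were 2.48 and 2.45 CPM in N2, 9.11 and 1.83 CPM in WT and 7.35 and 5.68 CPM in 2KR (-0.94 ± 0.27, adjusted p = 0.0392). Also among the 8 genes with the largest falls at an average log2 CPM of 2 or more, col-12 (-0.83 ± 0.25, adjusted p = 0.0479) and col-39 (-0.89 ± 0.24, adjusted p = 0.031), had WT differences of -1.87 and -1.90. Without the WT pair 7 collagens were lower, and the calls of col-149 (edgeR adjusted p = 0.607), col-12 (adjusted p = 0.858) and col-39 (adjusted p = 0.472) were lost. All 3 were also lost in the fit of 8 libraries (edgeR adjusted p = 0.0946, 0.122 and 0.114). Lower collagens numbered 18 without the 2KR pair and 26 without the N2 pair, where 377 of 13690 and 898 of 13766 genes tested were lower. Without the WT pair 423 of 13695 genes were called, 281 of them higher and the rest lower.

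The 9 collagens that rose, which include the rol-6 marker of the transgenic lines, were mostly abundant, with a median of 499 CPM. Among them col-95 (WBGene00000670, chromosome III, 11703994 to 11705091) was at 485, 427 and 442 CPM in repeat 1 and at 539, 523 and 576 CPM in repeat 6-6 (0.28 ± 0.05 SE, edgeR adjusted p = 0.0016). Without the WT pair 4 collagens were higher, without the 2KR pair 5 and without the N2 pair 19, where 281, 249 and 960 of all genes tested were higher. The adult collagen gene col-19 was at 921, 1003 and 1028 CPM in repeat 1 and 979, 934 and 1121 CPM in repeat 6-6, and it did not pass (0.04 ± 0.05, adjusted p = 0.665). Of 4 adult cuticle collagens tested 1 fell, col-7 (-1.26 ± 0.30, adjusted p = 0.0146). Its differences were -0.41 in N2, -2.50 in WT and -0.49 in 2KR. The col-7 call was lost without the WT pair (edgeR adjusted p = 0.395) and in the fit of 8 libraries (adjusted p = 0.052). None of the 6 furrow collagens passed, with dpy-9 the nearest (0.71 ± 0.26, adjusted p = 0.103), which passed without the WT pair (edgeR adjusted p = 0.0467). Of 48 molting and apical matrix genes 4 fell (8.33%, against 4.19% of all genes) and none rose. The protease inhibitor gene mlt-11, which molting needs, was at 12, 10.8 and 9.34 CPM in repeat 1 and 6.29, 5.76 and 9.09 CPM in repeat 6-6 (-0.61 ± 0.14, adjusted p = 0.0155, and 0.0513 in the fit of 8 libraries). The matrix gene noah-2 fell by 0.45 ± 0.10 on the log2 scale (adjusted p = 0.0101). In 49 hedgehog-related and patched-related genes 1 fell (2.04%, under the share of all genes), the patched gene ptc-2 (-0.27 ± 0.05, adjusted p = 0.00409). The co-injected rol-6, itself a collagen gene, rose by 0.27 ± 0.05 (adjusted p = 0.00567), a call lost without the 2KR pair (edgeR adjusted p = 0.152). Its levels by library are given above.

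Yolk genes did not pass between repeats. None of the 6 vitellogenin genes, which code for the yolk proteins made in the intestine, was called, and their median log2 fold change was 0.00. The X-linked vit-2 (WBGene00006926, 5101042 to 5106169) was at 22224, 20370 and 20661 CPM in repeat 1 of N2, WT and 2KR and at 21415, 18978 and 21984 CPM in repeat 6-6 (-0.02 ± 0.04 SE, edgeR adjusted p = 0.849). It was lower in N2 and WT and higher in 2KR. The adjusted p of the others ran from 0.269 for vit-1 to 0.755 for vit-5. The sum of the 6 genes was 98016 and 94410 CPM in N2, 90475 and 86807 CPM in WT and 92340 and 97681 CPM in 2KR. The vit-3, vit-4 and vit-5 genes are similar in sequence, so their reads may be shared.

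Some genes of oocytes and early embryos were slightly lower in repeat 6-6. Of 24 oocyte and eggshell genes 5 fell (20.8%, against 4.19% of all genes) and none rose. In this list 16 were lower in 3 of 3 genotypes (20.2% of all genes), and the median log2 fold change was -0.10. Of 28 maternal genes of the early embryo 4 fell (14.3%) and none rose, 17 were lower in 3 of 3 genotypes, and the median was -0.08. The oocyte RNA-binding gene puf-6 (WBGene00004242, chromosome II, 13039792 to 13043445) was at 208, 224 and 214 CPM in repeat 1 and 178, 188 and 164 CPM in repeat 6-6, without overlap (-0.29 ± 0.04 SE, edgeR adjusted p = 5.78e-04). The eggshell gene cbd-1 (WBGene00010351, chromosome IV, 11372991 to 11377627) went from 2759, 2823 and 2679 CPM to 2473, 2490 and 2201 CPM (-0.20 ± 0.04, adjusted p = 0.00535). For apx-1, a Notch ligand supplied to the embryo by the mother, the values were 139, 133 and 127 CPM against 118, 114 and 106 CPM (-0.24 ± 0.04, adjusted p = 0.00182), and for the polarity kinase gene par-1 the log2 fold change was -0.22 ± 0.04 (adjusted p = 0.00292). The yolk receptor gene rme-2 of oocytes was at 1181, 1293 and 1255 CPM and 1122, 1243 and 1115 CPM and did not pass (adjusted p = 0.152). In 28 germline and meiosis genes 2 fell (7.14%), the Nanos-family gene nos-3 (-0.29 ± 0.04, adjusted p = 5.96e-04) and the germline Argonaute gene csr-1 (-0.15 ± 0.04, adjusted p = 0.0311). In 50 genes of zygotic transcription 1 fell and 1 rose (2.0% each), under the shares of 4.19% and 4.01% over all genes. The hatching protease gene hch-1 fell (-0.90 ± 0.18, adjusted p = 0.00568) and sdz-27 rose (0.18 ± 0.05, adjusted p = 0.0418). Oocyte and maternal calls were 10 and 12 without the N2 pair, 3 and 1 without the WT pair and 3 and 2 without the 2KR pair. Over all genes tested, 898 of 13766 were lower without the N2 pair and 377 of 13690 without the 2KR pair. Without the WT pair 423 of 13695 were called, 281 of them higher and the rest lower. Without the WT pair the calls of cbd-1 (edgeR adjusted p = 0.0934), par-1 (adjusted p = 0.0708), csr-1 (adjusted p = 0.446) and sdz-27 (adjusted p = 0.272) were lost, and without the 2KR pair those of csr-1 (adjusted p = 0.0698) and sdz-27 (adjusted p = 0.172). Both were also lost in the fit of 8 libraries (edgeR adjusted p = 0.0513 and 0.0647).

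Other tissues and housekeeping classes moved less than muscle. Of 19 neuronal genes 2 rose (10.5%, against 4.01% of all genes) and none fell, 12 were higher in 3 of 3 genotypes (23.3% of all genes), and the median log2 fold change was 0.24. The rise included egl-3, a convertase that cuts neuropeptide precursors (0.29 ± 0.07 SE, edgeR adjusted p = 0.0122), and sbt-1, its chaperone (0.43 ± 0.08, adjusted p = 0.0042). Of 43 neuropeptide genes 3 rose (6.98%), with a median of 0.23. Cytosolic ribosomal protein genes had 8 lower and none higher of 78 (10.3% lower, against 4.19% of all genes), and a median of -0.05. The gene rps-29 was the one with the largest fall among those 8, at 295, 302 and 272 CPM in repeat 1 and 227, 258 and 230 CPM in repeat 6-6 (-0.28 ± 0.04, adjusted p = 9.00e-04). The fatty acid ligase gene acs-2, which fasting induces, was among the 8 genes with the largest falls at an average log2 CPM of 2 or more, on the strength of N2: 33.7 and 8.92 CPM in N2, 13.7 and 13 CPM in WT and 10.3 and 9.06 CPM in 2KR (-0.75 ± 0.22, adjusted p = 0.0447). Without the N2 pair its log2 fold change was -0.15 (adjusted p = 0.4), and in the fit of 8 libraries the call was lost (adjusted p = 0.207). Ribosomal RNA genes led the other side: rrn-2.1, for one of the small ribosomal RNAs, was at 33.7, 27.1 and 81.6 CPM in repeat 1 and 51.9, 67.5 and 179 CPM in repeat 6-6 (1.05 ± 0.08, adjusted p = 1.91e-06), and 5 of 6 ribosomal RNA genes rose. Also among the 8 largest rises were rrn-3.1 (0.66 ± 0.10, adjusted p = 6.48e-04), F31C3.16 (0.68 ± 0.10, adjusted p = 4.62e-04), T21B6.3 (0.69 ± 0.10, adjusted p = 6.25e-04) and ZC449.5 (0.70 ± 0.14, adjusted p = 0.00515). The calls of rrn-3.1 and F31C3.16 were lost in the fit of 8 libraries (edgeR adjusted p = 0.11 and 0.101). Without the WT pair sbt-1 was at an adjusted p of 0.0539, 1 ribosomal protein gene was lower and 1 neuropeptide gene higher, and without the 2KR pair no neuropeptide gene was called.

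**Figure D4:**
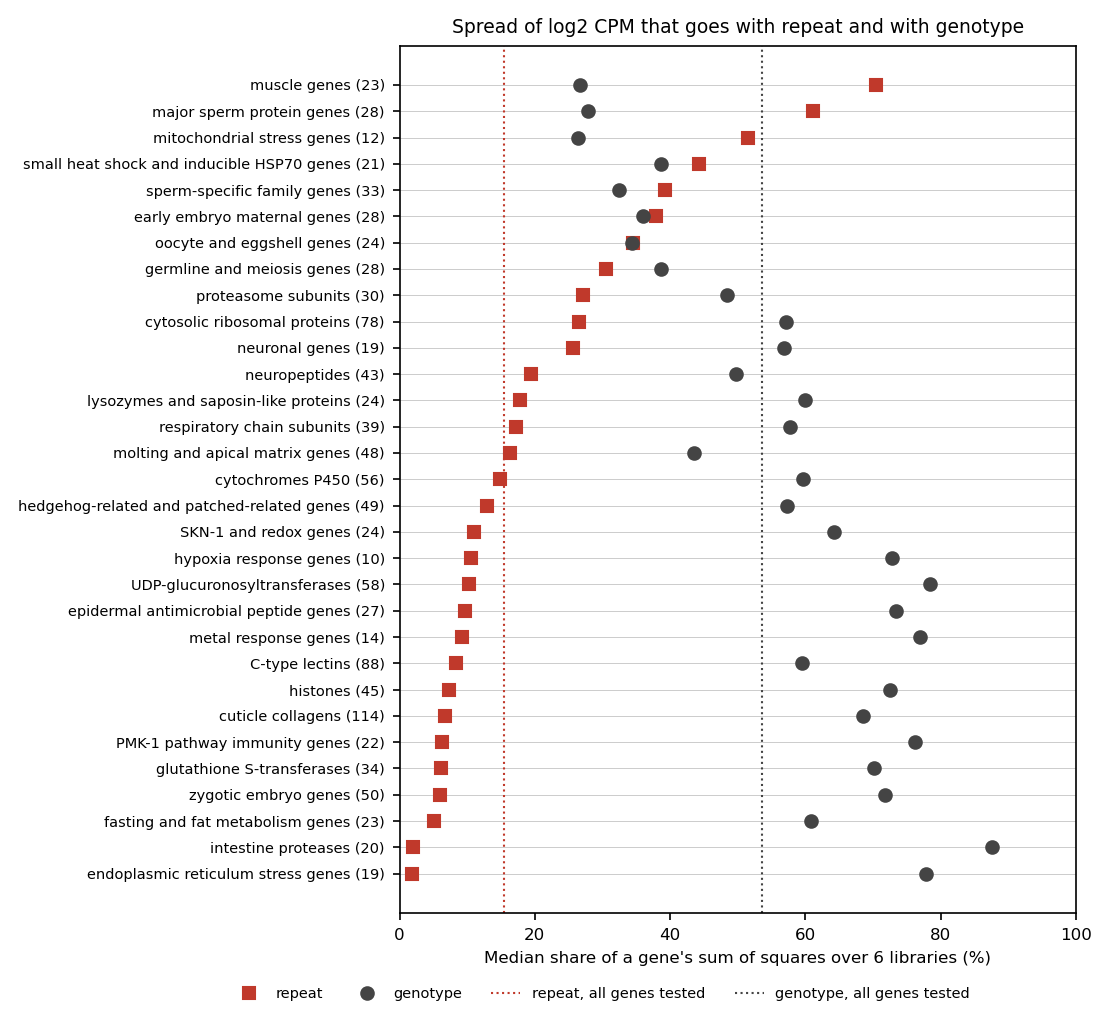
Median share of each gene's sum of squares of log2 CPM over the 6 libraries that goes with repeat (squares) and with genotype (circles), for lists with at least 10 tested members, with all genes tested as dotted lines. Repeat exceeds genotype in 7 of the lists drawn, led by muscle and major sperm protein genes, and in most lists genotype exceeds repeat.

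The share of the spread that goes with the repeat sets these classes in order. Over all genes tested, the median share of a gene's sum of squares in log2 CPM was 15.4% for repeat and 53.6% for genotype, with 2 degrees of freedom for genotype and 1 for repeat. Muscle genes had 70.4% with repeat and 26.7% with genotype. Major sperm protein genes had 61.1% and 27.9%, and heat shock genes 44.3% and 38.6%. Mitochondrial stress genes had 51.5% with repeat, though their fold changes were small. Collagens had 6.79% with repeat and 68.5% with genotype, and vitellogenins 8.87% and 65.9%. These shares are a description with no test.

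Repeat 3, with 1 library each of WT and 2KR, was not used in the comparison. Its differences share the repeat 1 libraries with those above, so the values are given side by side and not as a separate test. The median log2 difference of the 28 major sperm protein genes, repeat 3 minus repeat 1, was -0.99 in WT and -1.0 in 2KR, and none of the 28 was higher in either line. Their sum was 48.1 CPM in WT, between the other repeats, and 34.1 CPM in 2KR, close to repeat 6-6. For muscle genes the medians were 0.21 and 0.54, with 20 and 21 of 23 genes higher. In both lines repeat 1 had the highest sperm sum and the lowest unc-27 level of the 3 repeats.

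Heat shock genes did not follow that pattern. Repeat 3 minus repeat 1 had a median of -0.23 in both lines, and 4 of 21 genes were higher in each. The gene F44E5.4 was at 10.8 CPM in WT repeat 3, against 26.5 and 31.4 CPM in repeats 1 and 6-6, and at 13.4 CPM in 2KR repeat 3, against 40.3 and 53.4 CPM. For hsp-16.1 repeat 3 stood at 4.31 CPM in WT and 5.70 CPM in 2KR, under both other repeats. The collagens that were lower in repeat 6-6 had medians of -0.40 in WT and -0.36 in 2KR, with 2 and 4 of 19 higher in repeat 3. For ama-1, repeat 3 was at 224 and 228 CPM, near repeat 6-6, and for ncl-1 at 129 and 123 CPM, between the other repeats. The ribosomal RNA gene rrn-2.1 was at 44.8 CPM in WT repeat 3, between the other repeats, and at 45.5 CPM in 2KR repeat 3, under both.

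**Figure D5:**
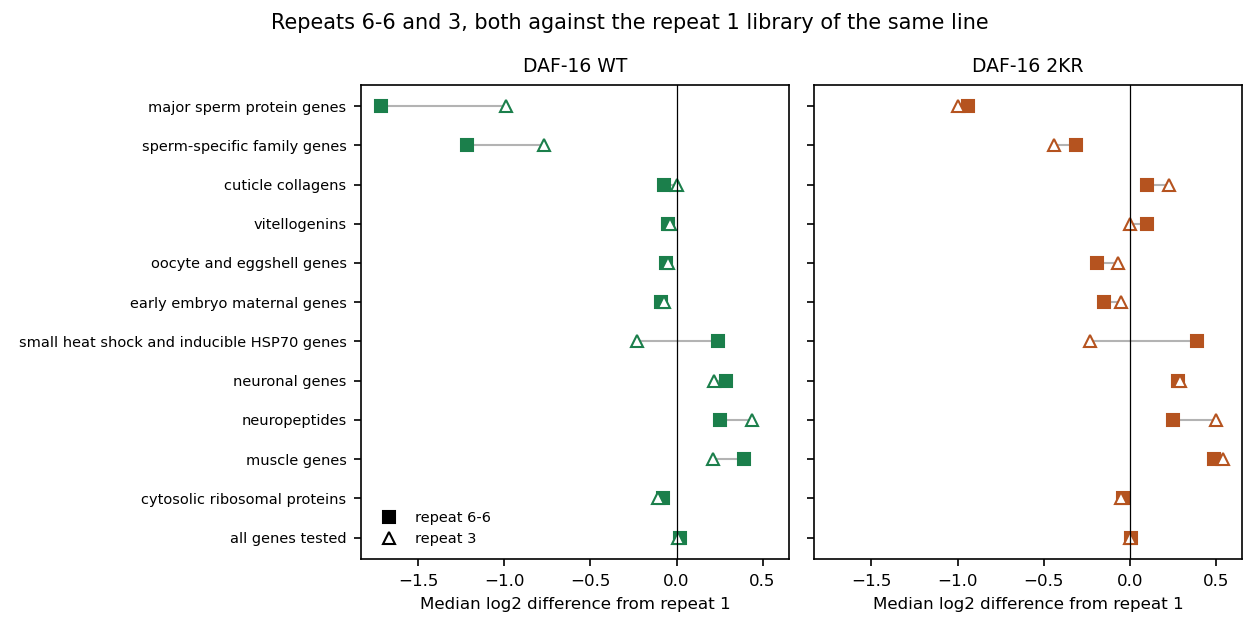
Median log2 difference from the repeat 1 library of the same line for repeat 6-6 (squares) and repeat 3 (open triangles), in WT and 2KR, by gene list. Both repeats lie on the same side of 0 for sperm and muscle genes and on opposite sides for heat shock genes. The points of a line share its repeat 1 library.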

How the data were processed

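RNA-seq libraries of whole day 1 adults were made from total RNA with a directional kit, per the labels' protocols. The submitters' processing notes name Trimmomatic 0.32, TopHat2 2.1.0 and DESeq2 1.14.1. Not given in the sources used here are the genome build, the program that made the counts and whether it used strand, so reads of overlapping and antisense genes may not be separated. As deposited, each table holds the authors' raw count per gene for 1 library, which was used here, and a column of CPM scaled by the authors to the library total, which was not. Each table lists 47084 genes. For 46474 of them the gene identifier was found in the WBcel235 annotation of Ensembl 115, which gave the positions.

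Counts of the 6 libraries were joined by gene identifier and fitted with edgeR 4.0.16 (limma 3.58.1, R 4.3.3). They were scaled by TMM, filtered by filterByExpr with the repeat as group, and tested with the quasi-likelihood F test in a fit with genotype and repeat, which leaves 2 residual degrees of freedom, with Benjamini-Hochberg adjustment over all 13691 genes tested. A positive log2 fold change means higher in repeat 6-6, and its error is the standard error from the fit. Levels are CPM scaled by TMM over the 8 N2, WT and 2KR libraries. Differences within 1 genotype are of log2 CPM with a prior count of 2 and have no test. The steps were tested on simulated data. DESeq2 1.42.0 was an alternative. Tables and plots were made in Python 3.11.15 with NumPy 2.4.6, pandas 2.3.3 and matplotlib 3.10.9.

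The repeats were matched across genotypes by the tag in the names of the deposited tables. The replicate numbers of the labels put the tag 6-6 at replicate 2 in N2 and at replicate 3 in WT and 2KR, so the numbers were not used as pairs. Genotype is the block because the same line stands on both sides. Each genotype has a single library per repeat, so p-values measure how far the difference between repeats varies across the 3 genotypes. They do not measure the spread between libraries of the same genotype and repeat. If a tag marks a shared batch, each repeat is a single batch. The labels do not say that the libraries of a genotype came from separate cultures, so the difference between repeats may be technical. The 3 libraries of a further line, 4KR, were not analysed, because counts and gene names are mismatched in their tables.

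The repeats compared, the 37 gene lists and the naming rule were chosen with earlier results of these data known. The rule took the called genes with the 8 largest rises and the 8 largest falls, if they averaged 2 or more in log2 CPM and kept 1 sign in 3 of 3 genotypes. Each sperm, cuticle, yolk, embryo and stress list added its called members by rank of p, at most 3, or its top-ranked member if no member was called. All vitellogenins, col-19, rol-6 and daf-16 were taken too. Not every gene that a list added is described here. Outside the rule, after their values were seen, were chosen all single muscle genes except myo-1, tnt-4 and ketn-1, the neuronal and neuropeptide genes, ama-1, rps-29, hsp-16.2, hsp-16.41, hsp-1, hsp-4, rme-2, and the sperm, transthyretin-related, galectin and nucleoporin genes of the closing section.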

Additional observations from a re-analysis of the deposited data

Results flagged for a closer look

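The difference between repeats in N2 departed from that in WT and 2KR in 4 of 14361 genes, by the edgeR interaction test with Benjamini-Hochberg adjustment in 8 libraries. The gene C17F4.7 (WBGene00015913, chromosome II, 3245087 to 3246015 of WBcel235) was at 472 and 156 CPM in repeats 1 and 6-6 of N2, at 161 and 250 CPM in WT and at 451 CPM in repeat 6-6 of 2KR, 0.53 above its repeat 1 on the log2 scale. It was lower in repeat 6-6 of N2 and higher in repeat 6-6 of both transgenic lines (interaction -2.17 on the log2 scale, adjusted p = 0.00456). The non-coding gene tts-1, known for its association with ribosomes in long-lived worms, was at 150 and 74.5 CPM in N2, 89 and 96.3 CPM in WT and 47.6 and 64.9 CPM in 2KR (-1.28, adjusted p = 0.0113). In the other direction, F42A10.7 was at 34 and 57.2 CPM in N2, 68.4 and 58.0 CPM in WT and 73.8 and 65.2 CPM in 2KR (0.96, adjusted p = 0.0101), and Y38F1A.6 at 105 and 153 CPM in N2, 174 and 147 CPM in WT and 296 and 250 CPM in 2KR (0.79, adjusted p = 0.0448). Each interaction rests on 1 N2 library per repeat.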

How the results depend on the processing

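Without the replicate block, 3 genes were called, 2 of them higher, with 0 major sperm protein, 0 heat shock and 1 muscle gene called. The DESeq2 Wald test gave 463 calls (155 higher, 308 lower), 224 calls between 2KR and WT and 589 between WT and N2, and it called 7 heat shock genes of the 14 with an adjusted p. It left the adjusted p of 6105 genes undefined, among them all 28 major sperm protein genes tested, so it gives no count for these, of which 26 had an unadjusted p under 0.05 and whose median log2 fold change was -1.12. The 8-library fit with repeat 3 gave 280 higher, 361 lower and 319 calls between 2KR and WT, and 630 of its 641 calls were among the 1122. It lost the call of 28 of the 123 genes followed through the settings, and leaving out the WT pair that of 33. Leaving out 1 genotype's pair at a time gave 423 to 1858 calls, 249 to 960 of them higher, 16 to 28 major sperm protein genes lower, 16 to 19 muscle and 9 to 13 heat shock genes higher. The same step gave 1104 calls between 2KR and WT without N2 and 2347 between WT and N2 without 2KR. DESeq2 size factors in edgeR gave 507 higher and 621 lower, no filter on low counts 706 and 673, and, chosen after seeing the data, robust dispersions 675 and 717 and leaving out ribosomal RNA genes 548 and 578. No named gene reversed a call under these settings. A fit with the 4KR pair was planned and not run, since its names could not be restored: set in the row order of N2, 4KR correlated with WT at 0.388 to 0.400, and 0.99 was required. The causes of these shifts were not tested. Depth limits single sperm genes, which stand at a few CPM.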

Other observations

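Further genes of spermatogenesis were among those lower in repeat 6-6, chosen here after their values were seen. The sperm chromatin genes spch-1, spch-2 and spch-3 had log2 fold changes of -1.92 ± 0.36, -1.35 ± 0.31 and -1.49 ± 0.25 (SE, edgeR adjusted p = 0.0039, 0.0128 and 0.00164). The gene spch-3 was at 1.96, 2.84 and 1.80 CPM in repeat 1 of N2, WT and 2KR and at 0.981, 0.597 and 0.781 CPM in repeat 6-6. The spermatogenesis Argonaute genes alg-3 and alg-4 fell by 1.08 ± 0.32 and 1.33 ± 0.30 on the log2 scale (adjusted p = 0.0479 and 0.0128), both calls being lost without the WT pair (0.176 and 0.154) and that of alg-3 also without the 2KR pair (0.293) and in the fit of 8 libraries (0.0854). The call of spch-2 was lost without the WT pair too (0.198). Not all genes of spermatogenesis passed. Of 13 tested genes with the prefix spe none was called. Their median log2 fold change was -0.24, and 6 were lower in 3 of 3 genotypes (20.2% of all genes).

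Families named by their shared prefix, likewise chosen after their values were seen, were counted without a test, where 4.01% of all genes tested were higher and 4.19% lower. Of 47 transthyretin-related ttr genes, which code for small secreted proteins, 15 rose (31.9%) and the median log2 fold change was 0.24. The gene ttr-16 was at 123, 122 and 118 CPM in repeat 1 and at 163, 165 and 164 CPM in repeat 6-6 (0.44 ± 0.04 SE, edgeR adjusted p = 5.07e-06). Of 12 galectin genes 5 rose (41.7%), lec-5 by 0.36 ± 0.05 (adjusted p = 2.53e-04). Of 22 nucleoporin genes 7 fell (31.8%), npp-8 from 232, 229 and 229 CPM to 185, 188 and 184 CPM (-0.30 ± 0.04, adjusted p = 1.88e-04). On the X chromosome 4.73% of 1947 genes tested were higher and 0.77% lower, and on chromosome V 5.58% and 3.01% of 2562. On chromosomes I to IV 2.95% to 3.98% were higher and 4.33% to 5.95% lower. Of 14 mitochondrial genes 4 were higher (28.6%) and none lower.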
